A study of Homo sapiens with 12 samples.

Results

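The 8 genes described here encode the AP-1 transcription factors of the Jun family (JUN, JUNB, JUND), the Fos family (FOS, FOSB, FOSL1, FOSL2) and the related factor ATF3. They were taken by name, with their Ensembl identifiers matched to gene symbols, from a table of 22379 genes. All 8 reached a mean value of at least 10 in untreated cells and were therefore among the 13811 genes that were tested. The lowest was FOSB, with an untreated mean of 21.3, and the highest was FOSL2, with 2523.

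AP-1 is a dimer of basic leucine zipper proteins that binds DNA at the TPA response element or, with ATF or CREB partners, at the cAMP response element. Jun proteins pair with each other or with Fos proteins, whereas Fos proteins need a Jun partner. FOS and JUN are classical immediate early genes: growth factors and stress switch them on within minutes, and their mRNAs are degraded quickly through AU-rich elements in the 3′ untranslated region, so that their level follows ongoing transcription closely.

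The study used loss of the nuclear pore protein NUP93 or of the RNA exosome subunit EXOSC5 as a way to limit mRNA decay while RNA polymerase II is blocked and lost, so that the role of mRNA loss in the resulting cell death could be examined. U2OS cells, a human osteosarcoma line, received a pX330 plasmid with Cas9 and a guide that was nontargeting (NONT, the labels' wild type), aimed at NUP93 (NUP93-KO) or aimed at EXOSC5 (EXOSC5-KO). Each population was treated for 8 h with DMSO, called untreated here, or with 1 µM triptolide, which targets the XPB helicase of TFIIH and so stops transcription initiation. Polyadenylated RNA was sequenced from 2 replicates of each of the 6 groups, and ERCC spike-in RNA had been added in proportion to the number of cells. The populations were transiently transfected, puromycin-selected pools and not clones, so they can hold unedited cells. The methods give a shorter selection and expansion for the NUP93 and EXOSC5 guides than for the other guides. All values below are ERCC-normalised values, which aim to track the amount of mRNA in a cell. On such a scale, fewer copies in each cell and fewer cells with the transcript cannot be told apart.

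The guides mark where each targeted gene was meant to be cut, and editing was not measured here. The NUP93 guide matched chr16:56748340-56748359 on the plus strand of GRCh38, within exon 2 of the 22 exons of the gene. The EXOSC5 guide matched chr19:41397170-41397189 on the plus strand, opposite to the gene, with 9 of its bases in exon 1 of 6 and the rest in the intron that follows. Capitals mark the adjacent PAM.
NUP93 guide: gaacttacaggagatccagcAGG
EXOSC5 guide: gaagttcttaccttgcaggaAGG

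The libraries held approximately 8.56 M to 11.9 M reads (M, mega), of which ERCC transcripts accounted for 0.246% to 0.83%. The pair of untreated NONT libraries differed most in scale, with gene sums of 11.3 M and 16.4 M. NUP93 stood at 1395 and 1432 in untreated NUP93-KO cells and at 1753 and 2489 in untreated NONT cells (log2 fold change −0.56 ± 0.20 (SE), limma adjusted p = 0.926). EXOSC5 stood at 215.9 and 147.7 in untreated EXOSC5-KO cells and at 299.4 and 481.3 in untreated NONT cells (−1.08 ± 0.29 (SE), limma adjusted p = 0.151). Neither targeted gene passed the threshold in these untreated comparisons. With triptolide, EXOSC5 stood at 75.2 and 101.5 in EXOSC5-KO and at 265.8 and 207.8 in NONT cells. NUP93 then stood at 801.3 and 1019 in NUP93-KO and at 1007 and 898.7 in NONT cells. The treated groups were not tested against each other, and mRNA values do not measure editing or protein. Of the 8 markers of mesenchyme and the osteoblast lineage, VIM, COL1A1 and SPARC were abundant (at least 13192 in untreated cells), whereas COL1A2 reached only 42.0, BGLAP 5.68, and SP7 was listed at 0 throughout. CD3E was listed at 0 in all libraries, and the epithelial and endothelial markers each stayed below 75 in untreated cells.

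Untreated U2OS cells expressed all 8 AP-1 genes, at widely different levels. Compared per kilobase of the canonical transcript in untreated NONT cells, JUND was the most abundant (690 ± 139 (SD, n = 2)). FOSL2 (395 ± 55.6), FOSL1 (320 ± 47.1) and JUNB (304 ± 78.1) followed. ATF3 (164 ± 35.3) and JUN (127 ± 34.0) were lower, and FOS (46.5 ± 11.6) and FOSB (5.87 ± 5.03) were the lowest. Replicate ranges overlapped between FOSL1 and JUNB and between ATF3 and JUN, and all other neighbours in this order were apart. JUND also ranked first in the other 5 groups. The untreated pool was made mainly of JUND, FOSL2, FOSL1 and JUNB mRNA, with FOS and FOSB together below 3% of it. JUN, an immediate early gene like FOS, held 6.17% ± 0.435 (SD, n = 2) in NONT cells.

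**Figure D1:**
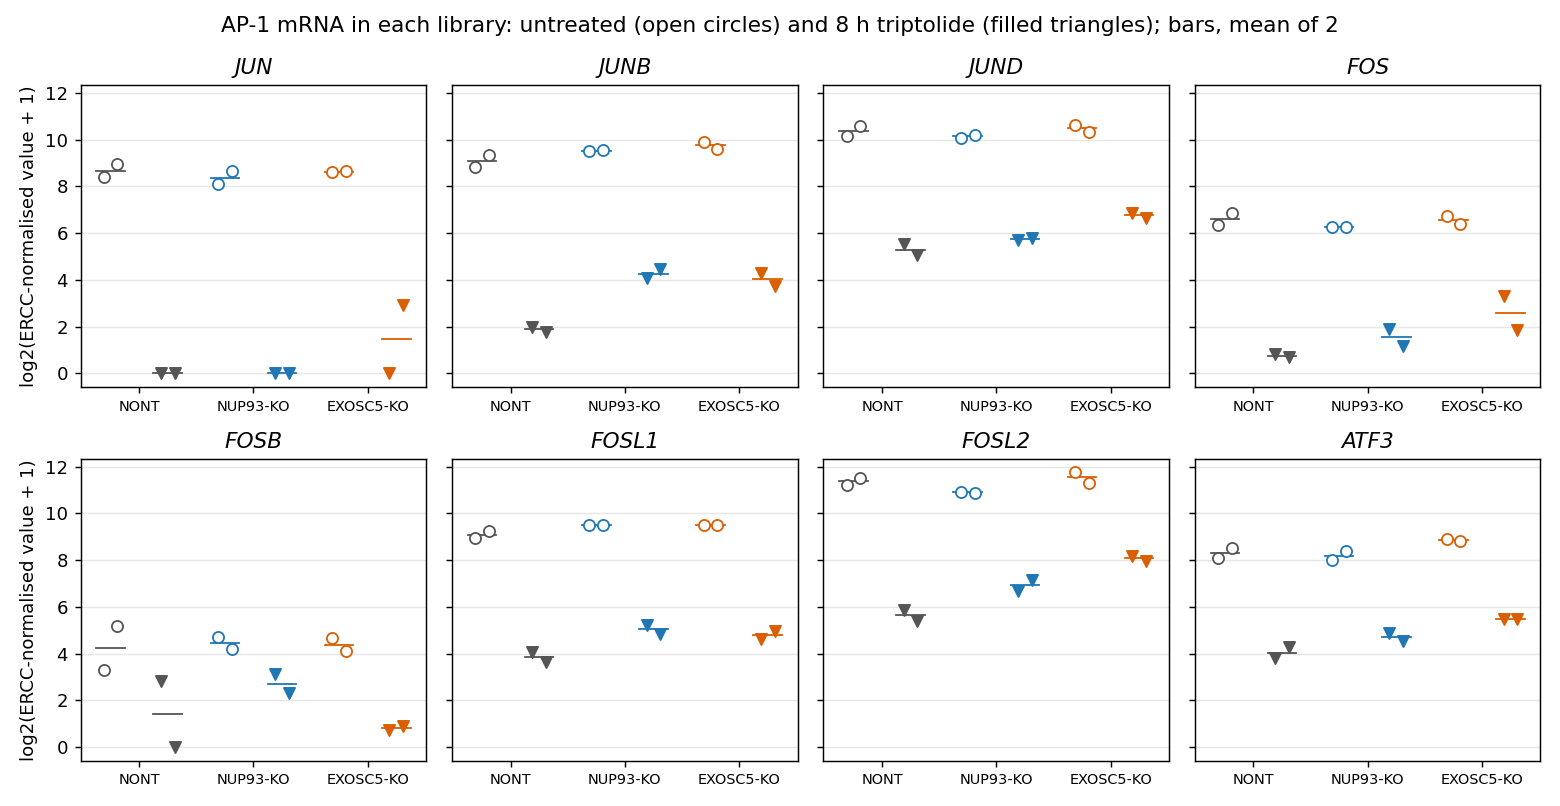
Each panel plots one AP-1 gene as log2(ERCC-normalised value + 1) in the 12 libraries, with open circles for untreated cells, filled triangles for 8 h of triptolide, and a bar at the mean of 2 replicates. JUN lies at 0 in 5 of 6 treated libraries, and FOSL2 shows the widest separation between treated NONT (41.0 and 57.4) and treated EXOSC5-KO cells (249.5 and 289.0).

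To see how the AP-1 genes respond when transcription stops, treated cells were compared with untreated cells in each genotype. In NONT cells, all 8 genes were lower after triptolide by limma (adjusted p under 0.05), where 90.0% of all tested genes were also called lower. In EXOSC5-KO cells 8 of 8 were lower against 64.3% of all genes, and in NUP93-KO cells 7 of 8 were lower against 55.1%, with FOSB the exception. The count therefore says little by itself, but the sizes were large. The median log2 fold change of the 8 genes was −5.48 in NONT cells, −4.42 in NUP93-KO cells and −3.86 in EXOSC5-KO cells, against −1.62, −0.92 and −1.08 over all genes. Each of the 8 genes lay below the all-gene median in each genotype, and the treated values of all 8 stayed under the untreated ones without overlap, as they did for 94.8% of all genes in NONT cells, 79.1% in NUP93-KO cells and 88.0% in EXOSC5-KO cells. If libraries are instead rescaled by median of ratios, which takes the typical gene as constant, limma called 4213 genes lower and 3703 higher in NONT cells (12427 and 7 on the ERCC scale), and all 8 AP-1 genes stayed negative. Fold changes are on the log2(value + 1) scale, which understates the change of low genes.

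**Figure D2:**
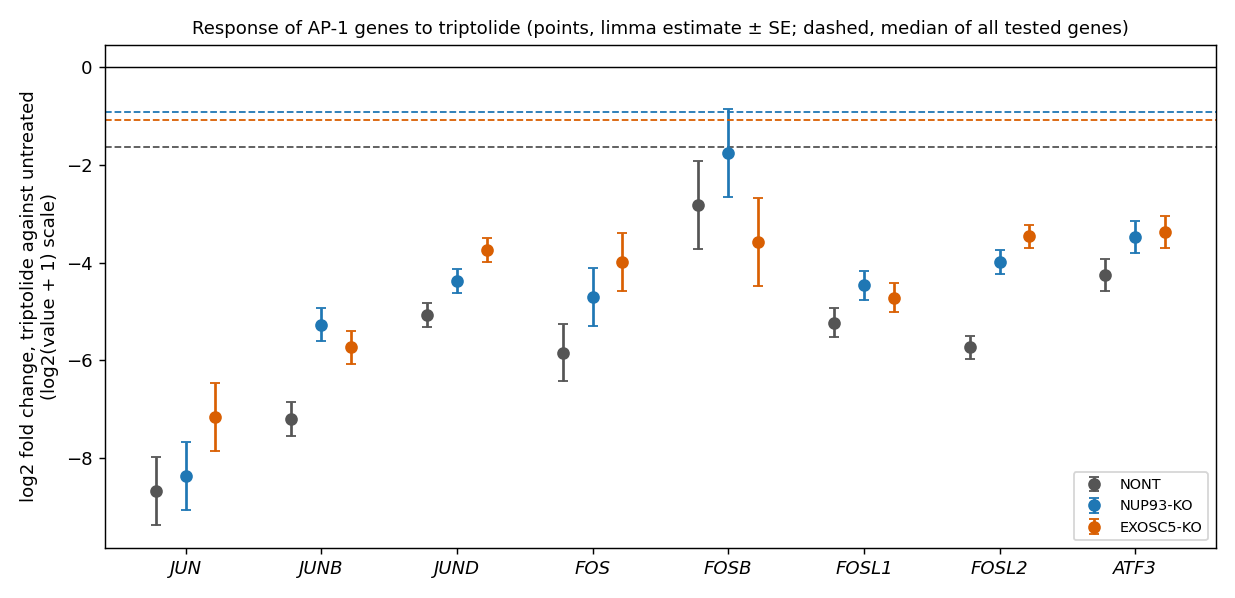
Points give the log2 fold change of treated against untreated cells for each AP-1 gene with its SE, coloured by genotype, and dashed lines give the median of all 13811 tested genes (−1.62, −0.92 and −1.08). The AP-1 points lie below the line of their own genotype, and those of JUN depend on the constant added before the logarithm because its treated values are listed at 0.

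Among the Jun genes, JUN lost the largest share of its listed value. JUN encodes c-Jun, the strongest transcriptional activator of the family, and lies at chr1:58776845-58784048 on the minus strand, with a canonical transcript of 1 exon. Its values were 336.9 and 493.3 in untreated NONT, 270.3 and 399.6 in untreated NUP93-KO, and 388.5 and 401.2 in untreated EXOSC5-KO cells. After triptolide it was listed at 0 in both NONT and both NUP93-KO libraries, and at 0 and 6.58 in the EXOSC5-KO libraries. The untreated and treated libraries did not overlap, and limma called the fall in NONT cells (adjusted p = 1.09e-08), NUP93-KO (5.05e-08) and EXOSC5-KO cells (2.16e-07). No fold is given, because the treated groups are at or near 0. In order of fitted fold change, JUN was the lowest gene of 13811 in NUP93-KO cells, 4th from the lowest in NONT cells and 24th in EXOSC5-KO cells. With treated values at or near 0, these ranks depend on the untreated level and on the constant added before the logarithm.

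A value of 0 in an estimated abundance can be a failed estimate, so the other abundant genes were examined. Of 8622 genes with an untreated mean of at least 200, 45 were listed at 0 in any treated library. JUN and C6orf47, which was picked out after its values were seen, were the only 2 at 0 in at least 5 of the 6. The housekeeping genes ACTB and GAPDH never fell below 67129 and 35216 in the treated libraries. Values of other genes cannot show whether the 0 of JUN is itself a failed estimate, which was not tested.

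JUNB (chr19:12791486-12793315, plus strand, 1 exon in the canonical transcript), a weaker activator that can oppose c-Jun, came next. It stood at 455.0 and 657.1 in untreated NONT, 723.9 and 748.0 in untreated NUP93-KO, and 959.2 and 779.9 in untreated EXOSC5-KO cells. With the drug, JUNB was 3.01 and 2.44 in NONT cells, 15.7 and 20.9 in NUP93-KO cells, and 18.7 and 12.4 in EXOSC5-KO cells. All 4 treated knockout libraries lay above both treated NONT libraries, a position shown by 75.6% of all genes in NUP93-KO and 75.1% in EXOSC5-KO cells. The level left was 0.490% of the untreated mean in NONT cells (0.372% to 0.661% over pairs of libraries), 2.49% in NUP93-KO cells (2.10% to 2.88%) and 1.79% in EXOSC5-KO cells (1.29% to 2.40%). The log2 fold change was −7.20 ± 0.34 (SE, limma adjusted p = 6.19e-11) in NONT cells, the 50th lowest of all genes.

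JUND (chr19:18279694-18281622, minus strand, 1 exon), the Jun gene expressed most evenly across tissues and least tied to stimulation, kept more of its mRNA. It stood at 1141 and 1521 in untreated NONT, 1084 and 1179 in untreated NUP93-KO, and 1598 and 1297 in untreated EXOSC5-KO cells. The treated values were 45.4 and 32.3 in NONT cells, 51.9 and 54.6 in NUP93-KO cells, and 114.6 and 100.6 in EXOSC5-KO cells. The treated groups thus ran from NONT through NUP93-KO to EXOSC5-KO with no overlap. How many of all genes share this full order was not counted. Treated values above NONT without overlap were shown by 75.6% of them in NUP93-KO and 75.1% in EXOSC5-KO cells. The level left was 2.92% in NONT cells (2.12% to 3.98%), 4.71% in NUP93-KO cells (4.40% to 5.04%) and 7.44% in EXOSC5-KO cells (6.30% to 8.84%). Its log2 fold change in NONT cells was −5.07 ± 0.25 (SE, limma adjusted p = 7.83e-11).

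FOS (chr14:75278826-75282230, plus strand, 4 exons), which encodes c-Fos, was low before treatment and close to the limit of detection after it. Its values were 80.5 and 115.0 in untreated NONT, 74.97 and 74.98 in untreated NUP93-KO, and 104.7 and 83.9 in untreated EXOSC5-KO cells. After triptolide they were 0.770 and 0.626 in NONT cells, 2.72 and 1.27 in NUP93-KO cells, and 8.87 and 2.60 in EXOSC5-KO cells. The treated NONT values stand for about 1.28 reads in each library, so the share left there (0.714%) is poorly resolved. The log2 fold change was −5.84 ± 0.59 (SE) in NONT cells, −4.71 ± 0.59 in NUP93-KO cells and −3.99 ± 0.59 in EXOSC5-KO cells, and limma called all of them (adjusted p = 1.58e-07, 3.93e-06 and 2.01e-05).

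FOSB (chr19:45467995-45475179, plus strand, 4 exons), an inducible Fos gene, was the least abundant member and the most variable. It stood at 8.71 and 35.6 in untreated NONT, 25.5 and 17.6 in untreated NUP93-KO, and 24.5 and 16.1 in untreated EXOSC5-KO cells. With the drug, FOSB was 6.08 and 0 in NONT cells, 7.62 and 3.98 in NUP93-KO cells, and 0.659 and 0.847 in EXOSC5-KO cells. Treated and untreated libraries did not overlap in any genotype, but about 20.3 reads at most were behind an untreated NONT value. The log2 fold change was −2.83 ± 0.90 (SE, limma adjusted p = 0.00756) in NONT cells, −1.76 ± 0.90 (adjusted p = 0.109) in NUP93-KO cells and −3.58 ± 0.90 (adjusted p = 0.00243) in EXOSC5-KO cells. The call in NONT was lost without treated NONT replicate 2 (−1.41, adjusted p = 0.169) or untreated NONT replicate 2 (−1.87, adjusted p = 0.123).

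FOSL1 (chr11:65892049-65900573, minus strand, 4 exons) encodes Fra-1, a Fos protein without a strong activation domain that is abundant in many invasive tumour lines. It stood at 487.5 and 600.9 in untreated NONT, 723.8 and 719.6 in untreated NUP93-KO, and 728.8 and 717.2 in untreated EXOSC5-KO cells. After triptolide it was 15.7 and 11.6 in NONT cells, 36.1 and 27.9 in NUP93-KO cells, and 23.4 and 30.04 in EXOSC5-KO cells. Both knockouts lay above NONT with and without the drug, with no overlap of libraries. With the drug, 75.6% of all genes did so in NUP93-KO and 75.1% in EXOSC5-KO cells. Without it, 7.93% and 19.2% did. The level left was 2.51% in NONT cells (1.92% to 3.22%), 4.44% in NUP93-KO cells (3.86% to 5.02%) and 3.69% in EXOSC5-KO cells (3.21% to 4.19%).

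FOSL2 (chr2:28392448-28417317, plus strand, 4 exons) encodes Fra-2, which among other roles acts in osteoblast differentiation, and was the Fos gene with the highest untreated values. It stood at 2391 and 2918 in untreated NONT, 1939 and 1893 in untreated NUP93-KO, and 3447 and 2552 in untreated EXOSC5-KO cells. Treated cells held 57.4 and 41.0 in NONT cells, 100.8 and 142.9 in NUP93-KO cells, and 289.0 and 249.5 in EXOSC5-KO cells. The treated groups were fully separated, with the highest NONT value (57.4) below the lowest knockout value (100.8). Of all genes, 75.6% in NUP93-KO cells and 75.1% in EXOSC5-KO cells also lay above NONT without overlap. The level left was 1.85% in NONT cells (1.41% to 2.40%), 6.36% in NUP93-KO cells (5.20% to 7.55%) and 8.98% in EXOSC5-KO cells (7.24% to 11.3%). The log2 fold change was −5.74 ± 0.24 (SE) in NONT cells, −3.98 ± 0.24 in NUP93-KO cells and −3.46 ± 0.24 in EXOSC5-KO cells (limma adjusted p = 2.57e-11, 2.86e-09 and 7.16e-09).

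ATF3 (chr1:212565334-212620777, plus strand, 4 exons) encodes a stress-induced factor that pairs with Jun proteins and can act as a repressor. It stood at 268.8 and 365.6 in untreated NONT, 258.1 and 331.1 in untreated NUP93-KO, and 476.1 and 450.3 in untreated EXOSC5-KO cells. Treated values were 12.9 and 18.5 in NONT cells, 28.6 and 22.6 in NUP93-KO cells, and 44.1 and 43.7 in EXOSC5-KO cells. The level left was 4.96% in NONT cells (3.54% to 6.90%), 8.69% in NUP93-KO cells (6.81% to 11.1%) and 9.48% in EXOSC5-KO cells (9.18% to 9.79%), where the range of FOSL2 included it. Across all tested genes, the median level left was 31.4% in NONT cells, 52.5% in NUP93-KO cells and 47.2% in EXOSC5-KO cells.

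The 3′ untranslated regions of the AP-1 mRNAs were searched for ATTTA, the core of AU-rich elements, on the transcribed strand of the canonical transcript. All 8 hold at least 1 copy, as do 74.3% of 12934 tested genes. FOS holds 5 copies in 806 bases, and only 4.58% of tested genes are more densely supplied. FOSL2 holds 9 in 4869 bases, JUN, FOSB and ATF3 hold 3 each, JUNB holds 2, and JUND and FOSL1 hold 1 each, against a median of 2 over all tested genes. Per kilobase, FOSL2 is ordinary, at 1.85 against a median of 1.75, and 48.1% of tested genes are denser. JUNB holds 4 per kilobase, and 15.4% are denser. JUN (2.34) and ATF3 (2.46) also lie above the median density, and FOSB (1.38), JUND (1.34) and FOSL1 (1.19) lie below it. For FOS (chr14:75282057-75282086, plus strand) and FOSL2 (chr2:28416348-28416377, plus strand), a 30-base stretch is shown that holds as many copies as any other. They were picked as the mRNAs with the densest and the most numerous copies. Beside them is a copy of JUN (chr1:58781336-58781365, minus strand), which was listed at 0. Capitals mark ATTTA in GRCh38, and a match is a description of sequence only.
FOS: ttgtgtttttaATTTATTTAttaagatgga
FOSL2: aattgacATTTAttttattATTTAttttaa
JUN: ttccagaaaggatATTTAagaaaatacaat

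The promoters were searched on both strands for TGACTCA, the TPA response element, and TGACGTCA, the cAMP response element, in RefSeq windows of 250 bases before to 50 after the start (GRCh38.p14). Windows were found for 7 of the 8 genes, all but FOSL1. Of 35116 windows of this length, 4.95% hold TGACTCA and 1.85% hold TGACGTCA. The JUND window (chr19:18281573-18281872, minus strand) holds TGACGTCA beginning 200 bases before the start, and the FOSL2 window (chr2:28392608-28392907, plus strand) holds TGACTCA beginning 4 bases after it. They are shown because these are the Jun and the Fos gene with the highest untreated values and the only members with an exact match, which capitals mark.
JUND: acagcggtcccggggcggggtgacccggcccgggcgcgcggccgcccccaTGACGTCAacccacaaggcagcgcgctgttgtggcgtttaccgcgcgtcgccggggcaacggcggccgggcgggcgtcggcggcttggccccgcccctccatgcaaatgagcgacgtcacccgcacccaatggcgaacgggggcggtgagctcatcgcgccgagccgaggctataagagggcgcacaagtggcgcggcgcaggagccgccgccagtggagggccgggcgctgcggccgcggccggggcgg
FOSL2: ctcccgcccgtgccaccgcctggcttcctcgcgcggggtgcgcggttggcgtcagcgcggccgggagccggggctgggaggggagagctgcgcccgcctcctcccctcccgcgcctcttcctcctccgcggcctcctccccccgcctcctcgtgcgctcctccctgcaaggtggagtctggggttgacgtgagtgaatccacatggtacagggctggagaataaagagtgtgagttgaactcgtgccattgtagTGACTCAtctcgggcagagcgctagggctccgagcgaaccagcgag

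The make-up of the AP-1 pool differed between untreated and treated cells. Shares within a library do not depend on the spike-in scale, so they were compared as the percentage of the summed value per kilobase. The pool itself held 2052 ± 406 (SD, n = 2) without and 46.2 ± 7.65 with the drug in NONT cells, 1994 ± 90.9 and 90.3 ± 0.618 in NUP93-KO cells, and 2507 ± 294 and 146.6 ± 9.77 in EXOSC5-KO cells, per kilobase. JUN made up 5.86% and 6.47% of it in the untreated NONT libraries and none after triptolide. The share of JUND was 33.6% ± 0.139 without and 43.3% ± 3.27 with the drug in NONT cells, 29.9% ± 0.899 and 38.01% ± 0.968 in EXOSC5-KO cells, but 29.4% ± 0.407 and 30.6% ± 0.871 in NUP93-KO cells (SD, n = 2 each). The mean share of FOSL2 was lower with the drug in NONT cells and higher in both knockouts. It was 19.4% ± 1.13 without and 15.8% ± 1.13 with the drug in NONT cells, 14.3% ± 0.892 and 20.1% ± 4.78 in NUP93-KO cells, and 17.7% ± 1.68 and 27.3% ± 1.02 in EXOSC5-KO cells. The share of ATF3 was 7.95% ± 0.147 without and 18.2% ± 7.41 with the drug in NONT cells, 7.59% ± 0.989 and 14.6% ± 2.55 in NUP93-KO cells, and 9.57% ± 0.746 and 15.5% ± 0.933 in EXOSC5-KO cells. The share of JUNB was lower with the drug in every genotype, at 14.7% ± 0.894 and 3.23% ± 0.0609 in NONT cells, 20.2% ± 0.451 and 11.1% ± 2.14 in NUP93-KO cells, and 18.9% ± 0.544 and 5.75% ± 1.30 in EXOSC5-KO cells. These shares were not tested and are given as a description.

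**Figure D3:**
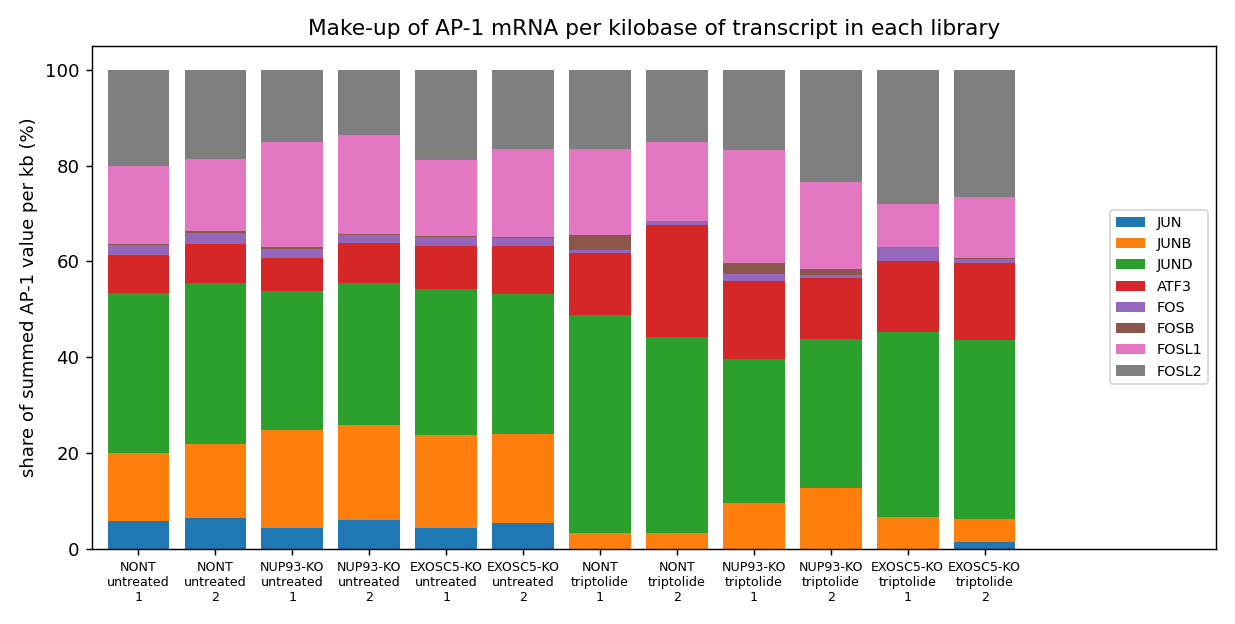
Stacked bars give the share of each AP-1 gene in the summed value per kilobase in each of the 12 libraries, untreated on the left and triptolide on the right. JUND is the largest share in every library, JUN is at 0 in 5 of the 6 treated libraries, and the share of FOSL2 is highest in the treated EXOSC5-KO libraries (27.3% ± 1.02).

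Without the drug, neither knockout moved an AP-1 gene past the threshold. By limma 0 of 8 were called in NUP93-KO cells and 0 of 8 in EXOSC5-KO cells, where 0.0217% and 0.521% of all tested genes were called in either direction, and none of the 8 had an unadjusted p under 0.05, where 4.2% and 8.49% of all genes did. JUNB and FOSL1 lay above NONT in both untreated libraries of each knockout, a pattern shown by 7.93% of all genes in NUP93-KO cells and 19.2% in EXOSC5-KO cells. JUNB was higher by 0.43 ± 0.34 (SE) on the log2 scale in NUP93-KO cells (95% interval −0.29 to 1.14) and by 0.66 ± 0.34 in EXOSC5-KO cells (−0.06 to 1.38). FOS and FOSL2 lay below NONT in both untreated NUP93-KO libraries, as did 12.8% of all genes, with differences of −0.36 ± 0.59 and −0.46 ± 0.24. ATF3 lay above NONT in both untreated EXOSC5-KO libraries, by 0.56 ± 0.32 (−0.11 to 1.24). With 2 replicates the data thus do not bound a difference in JUNB or ATF3 below the upper ends of these intervals.

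Whether AP-1 genes lost less of their mRNA under triptolide in the knockouts than in NONT cells was tested as the difference between log2 fold changes. FOSL2 was the only AP-1 gene called, and it was called in both knockouts. Its loss was smaller than in NONT by 1.75 ± 0.34 (SE, limma adjusted p = 0.0377, 95% interval 1.03 to 2.47) in NUP93-KO cells and by 2.28 ± 0.34 (limma adjusted p = 0.00913, 1.56 to 2.99) in EXOSC5-KO cells. Only 0.76% and 0.319% of all tested genes were called in this direction. Both differences use the same NONT libraries and are not independent of each other.

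Across all tested genes the median difference was 0.74 in NUP93-KO cells and 0.57 in EXOSC5-KO cells. The median of the 8 AP-1 genes was 0.92 and 1.40, and 6 of 8 exceeded the all-gene median in each knockout. In NUP93-KO cells FOSL1 and ATF3 exceeded it by only 0.03 and 0.04. This count depends on the constant added before the logarithm. With a pseudocount of 10, only JUNB (by 0.07) and FOSL2 (by 0.95) lay above the median in NUP93-KO cells. In EXOSC5-KO cells JUN, JUNB, FOSB and FOSL1 then lay below it. Relative to the all-gene median FOSL2 was less reduced by 1.01 in NUP93-KO cells and by 1.70 in EXOSC5-KO cells, which placed it 639th and 231st from the top of 13811 genes. When libraries were rescaled to the same total, the FOSL2 difference was 1.74 (limma adjusted p = 0.0355) in EXOSC5-KO cells but 0.99 (adjusted p = 0.300) in NUP93-KO cells, where the all-gene median was then −0.02. The EXOSC5-KO call was lost with the same mitochondrial sum (1.83, adjusted p = 0.133), without the trend of the variance (adjusted p = 0.0841) and without the filter (0.0501), and so was the NUP93-KO call (0.744, 0.129 and 0.0916). In NUP93-KO the call was also lost without treated NONT replicate 2 (adjusted p = 0.0756), untreated NONT replicate 2 (0.139), treated NUP93-KO replicate 2 (0.101) or either untreated NUP93-KO replicate (0.119 and 0.0808). In EXOSC5-KO it was lost without untreated EXOSC5-KO replicate 2 (adjusted p = 0.0603) or untreated NONT replicate 2 (0.169).

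**Figure D4:**
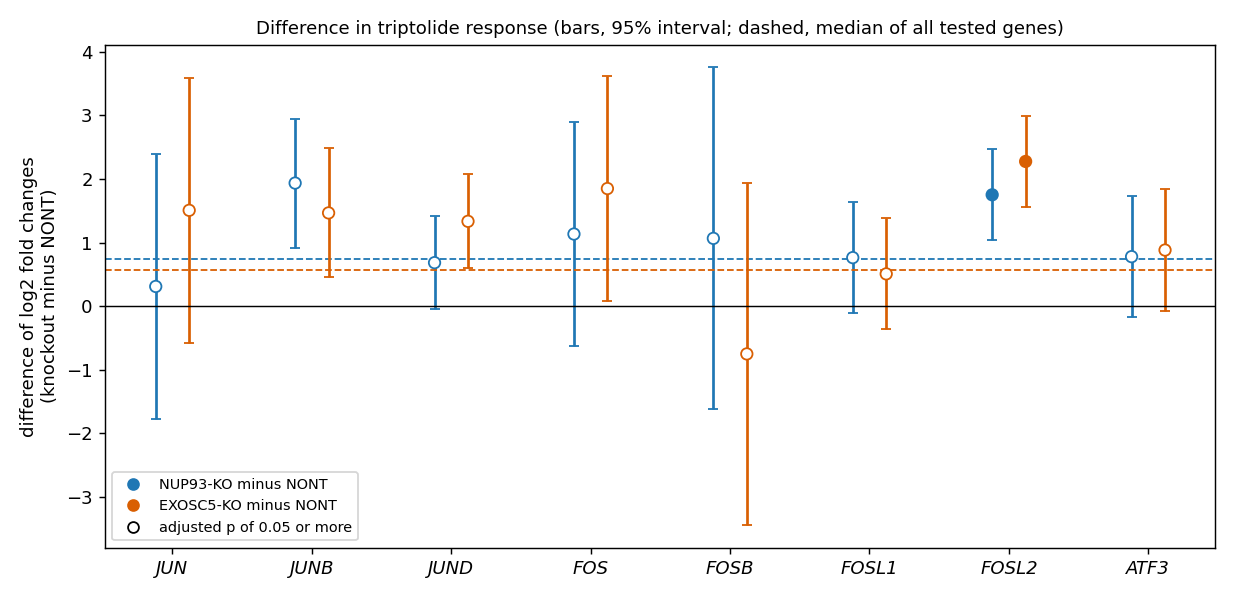
Points give the triptolide log2 fold change of each knockout minus that of NONT for the 8 AP-1 genes with 95% intervals, filled where the limma adjusted p is under 0.05, and dashed lines give the all-gene medians (0.74 and 0.57). FOSL2 is filled in both knockouts, and the wide bars of JUN, FOS and FOSB belong to the genes with the lowest treated values.

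**Figure D5:**
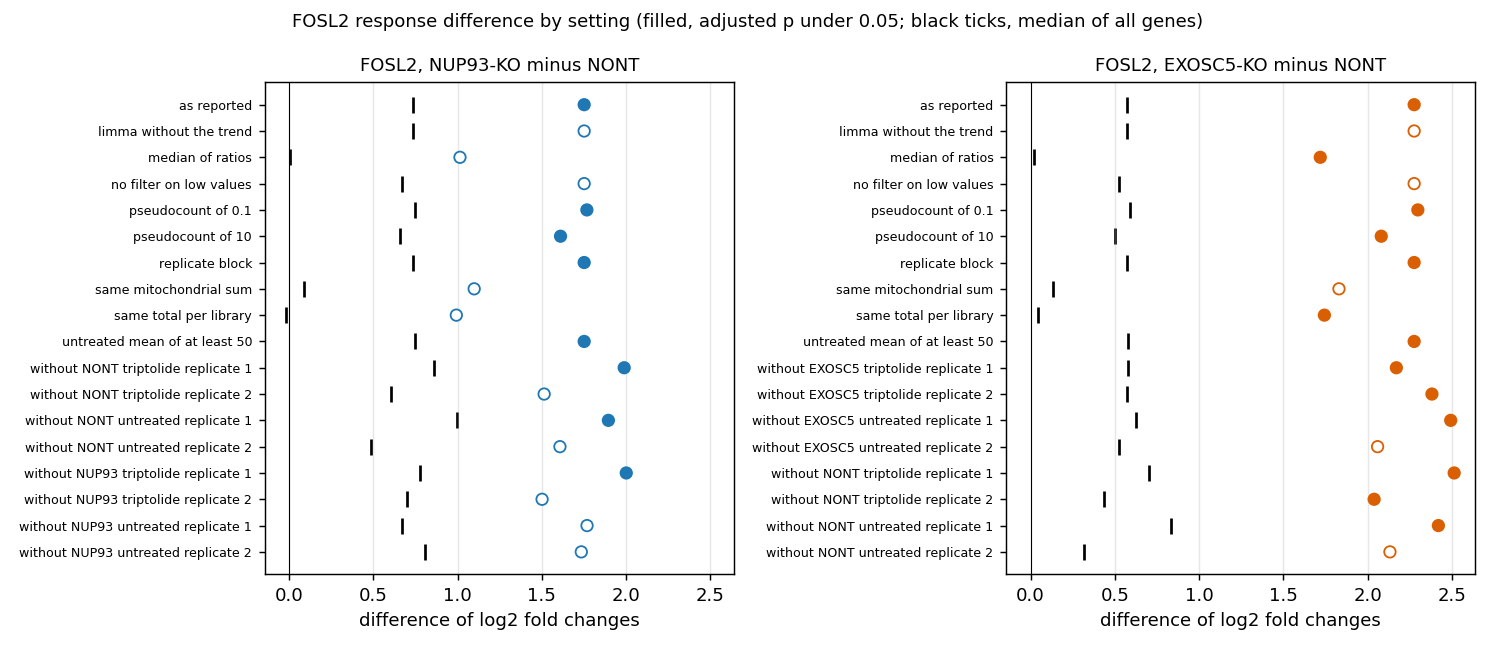
Circles give the FOSL2 response difference, knockout minus NONT, under each alternative processing setting and with each library left out, filled where the adjusted p is under 0.05, and black ticks give the median of all genes. The estimate stays positive under every setting shown, but the filled circles show that the call in NUP93-KO cells (1.75 as reported) rests on the scale and on single libraries more than that in EXOSC5-KO cells (2.28).

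The other members did not pass the threshold. JUNB came closest in NUP93-KO cells, at 1.94 ± 0.48 (SE, limma adjusted p = 0.0586), and was 1.47 ± 0.48 (adjusted p = 0.169) in EXOSC5-KO cells. These values rest on about 4.99 and 4.98 reads of JUNB in the treated NONT libraries, and with a pseudocount of 10 they were 0.73 and 0.34, beside all-gene medians of 0.66 and 0.50. JUND differed by 1.33 ± 0.35 (adjusted p = 0.113) in EXOSC5-KO and by 0.68 ± 0.35 (adjusted p = 0.140) in NUP93-KO cells. FOS differed by 1.13 ± 0.84 in NUP93-KO cells and 1.85 ± 0.84 in EXOSC5-KO cells, with intervals of −0.63 to 2.90 and 0.08 to 3.62. Without untreated NONT replicate 1, limma called 3 of 8 in each knockout, JUNB among them (adjusted p = 0.00532 and 0.0216), but it then called 7040 of all 13811 genes less reduced in NUP93-KO and 5280 in EXOSC5-KO cells, so these counts show nothing about AP-1 genes in particular. Without treated NONT replicate 1 it called 2 of 8 in each, beside 2480 and 405 of all genes. FOSL1 (0.76 and 0.51) and ATF3 (0.78 and 0.88) lay near the all-gene median. At an unadjusted p under 0.05, 2 of 8 differed in NUP93-KO cells and 4 of 8 in EXOSC5-KO cells, where 41.6% and 23.5% of all genes did. In treated cells, JUNB, JUND, FOS, FOSL1, FOSL2 and ATF3 were higher in both libraries of each knockout than in both NONT libraries (6 of 8 members), compared with 75.6% of all genes in NUP93-KO cells and 75.1% in EXOSC5-KO cells.

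The genes most like each member over the 12 libraries were found by the root mean square difference of log2 profiles centred on untreated cells. They were sought among 11667 genes with an untreated mean of at least 50. The nearest to JUN was FASTKD5 (0.67), followed by DDIT4 and DUSP1 (0.86 each), the last a phosphatase of MAP kinases. The nearest to JUNB were BBC3, FADD and PPP1R10 (0.28 to 0.37), and the nearest to FOSL1 were CCN2, RNF139 and SOX4 (0.21 to 0.23). FOSL2 was most like CTU1, MFSD5 and INTS5 (0.23 to 0.25), JUND most like EXO5 and HAPSTR1 (0.19 and 0.21), and ATF3 most like SLC30A1, TRAPPC2B and AKAP17A (0.19 to 0.21). FOS was most like TMEM186, CMTR2 and CTDP1 (0.26 to 0.33). None of these 11667 genes came closer than 0.59 to FOSB, which was nearest to CBFA2T2. The untreated mean of FOSB itself (21.3) lay below the limit of 50, so genes at its own level were not compared.

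Other basic leucine zipper genes that pair with AP-1 proteins or share their sites were also lower after triptolide. Of 21 such genes 19 were tested, and 19 were lower in NONT cells, 16 in NUP93-KO cells and 18 in EXOSC5-KO cells, with median log2 fold changes of −2.54, −1.89 and −1.84. Over all tested genes, 90.0%, 55.1% and 64.3% were called lower, with medians of −1.62, −0.92 and −1.08. The NONT count is thus near the share of all genes. The largest falls in NONT were those of NFE2L2, the master regulator of the antioxidant response (−5.81 ± 0.48 (SE), limma adjusted p = 1.49e-08), BACH1, a repressor that competes with it (−4.36 ± 0.25, 2.70e-10), and MAFK, their small Maf partner (−4.28 ± 0.26, 5.20e-10). None of the 19 was called without the drug or in the differences between knockouts and NONT.

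Upstream of AP-1, the 14 MAP kinase pathway genes were lower in 14 cases in NONT cells, 8 in NUP93-KO cells and 11 in EXOSC5-KO cells, with medians of −1.69, −0.94 and −0.92 that lay close to those of all genes. The shares of all genes called lower were 90.0%, 55.1% and 64.3%. MAP3K1, which activates the JNK branch, fell most in NONT cells (−6.23 ± 0.50 (SE)), before the p38 gene MAPK14 (−4.08 ± 0.22) and the JNK kinase MAP2K7 (−3.46 ± 0.29). MAPK10, which encodes JNK3, stood at 197.3 and 247.0 in untreated EXOSC5-KO cells against 41.5 and 39.2 in NONT. It was higher there by 2.42 ± 0.37 (SE, limma adjusted p = 0.00428), a call that was lost without untreated EXOSC5-KO replicate 2 (2.26, adjusted p = 0.102). It was the only one of the 14 called without the drug.

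Of 11 factors that switch on the FOS and JUN genes, of which CREB1 and ATF2 also stand among the leucine zipper partners, 10 were lower in NONT cells, 7 in NUP93-KO cells and 9 in EXOSC5-KO cells (medians −2.65, −1.66 and −1.81). Of all tested genes, 90.0%, 55.1% and 64.3% were called lower (medians −1.62, −0.92 and −1.08). MEF2D, which acts at the JUN promoter, fell by 5.03 ± 0.30 (SE) in NONT cells, and the SRF partners MRTFA (−4.44 ± 0.28) and ELK4 (−3.09 ± 0.31) fell as well. All 5 ubiquitin ligase genes that act on Jun and Fos proteins were lower in every genotype (medians −2.86, −2.02 and −2.32), beside the same shares of all genes. The fitted fold changes in NONT cells were −3.76 ± 0.39 for FBXW7 and −2.86 ± 0.52 for DET1. None of these 16 genes was called without the drug or in the differences from NONT.

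AP-1 target genes went their own ways. Of 19 on the list 18 were tested, and 15 were lower in NONT cells, 4 in NUP93-KO cells and 11 in EXOSC5-KO cells, with medians of −1.30, −0.27 and −0.72 that lay above those of all genes. Among all tested genes 90.0%, 55.1% and 64.3% were called lower. VEGFA, the angiogenic growth factor, was lower (−3.66 ± 0.35 (SE)) and so was EZR, the membrane linker ezrin (−2.48 ± 0.20), in NONT cells. Estimates of MMP10 were above 0 but uncalled in NONT (0.15 ± 0.67 (SE)) and NUP93-KO cells (0.72 ± 0.67), and below 0 in EXOSC5-KO cells (−1.42 ± 0.67). The only target called higher after the drug in any genotype was CXCL8, the neutrophil chemokine interleukin 8. It stood at 61.2 and 60.4 in untreated and 49.0 and 65.5 in treated NONT cells, at 152.2 and 141.9 and then 290.1 and 337.0 in NUP93-KO cells, and at 254.8 and 213.9 and then 346.6 and 375.5 in EXOSC5-KO cells. CXCL8 thus overlapped between treated and untreated NONT cells and was higher with the drug in both knockouts, by 1.08 ± 0.27 (SE, limma adjusted p = 0.00226) and 0.63 ± 0.27 (adjusted p = 0.0482). The latter call was lost without any one of the 4 EXOSC5-KO libraries (adjusted p = 0.0870 to 0.228).

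Without the drug, CXCL8 was higher in EXOSC5-KO than in NONT cells by 1.92 ± 0.27 (SE, limma adjusted p = 0.00217). SPP1, the bone matrix protein osteopontin, was higher by 1.56 ± 0.27 (adjusted p = 0.00969), at 455.7 and 412.8 against 166.4 and 128.2, a call that needs both untreated EXOSC5-KO libraries (adjusted p = 0.107 and 0.0930 without either). PLAUR, the urokinase receptor, was the only target whose response differed from NONT: it went from 1322 and 1663 to 1109 and 1385 in NUP93-KO cells and from 1143 and 1710 to 443.3 and 336.7 in NONT cells. The difference was 1.59 ± 0.32 (SE, limma adjusted p = 0.0410). Under the 3 rescalings it was 0.82 to 0.93 and was not called (adjusted p = 0.133 to 0.671), and it was lost without treated NONT replicate 2, untreated NONT replicate 2, treated NUP93-KO replicate 2 or either untreated NUP93-KO replicate (adjusted p = 0.0541 to 0.177).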

How the data were processed

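The authors pseudoaligned paired reads to the Ensembl GRCh38 cDNA transcriptome with kallisto (0.46.1 in the submitters' processing notes), summarised them per gene with tximport, and divided them by DESeq2 size factors estimated on the 92 ERCC transcripts. The deposited values are a signal per gene relative to the spike-in, not counts, and an error in cell counting or spike-in volume moves all genes of a library together. Whole reads were not recovered (17.5% to 27.1% of values fell within 0.02 reads of a whole number), so the DESeq2 model of the study was replaced by limma 3.58.1 in R 4.3.3: log2(value + 1), 6 group means over all 12 libraries, eBayes with a trend, two-sided, 7 comparisons, Benjamini-Hochberg adjustment over 13811 genes with an untreated mean of at least 10, threshold 0.05. The linear model was tested on simulated data with known changes in 200 genes and independent noise. The simulation held no shift common to a library, so it does not cover such an error. Depth was estimated from the value of 1 read, which the lowest values show, and covers counting error only.

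Symbols, coordinates and transcript lengths came from GENCODE 44 on GRCh38 (19584 genes matched, 2795 did not). Groups and replicate numbers came from the sample labels, which do not say that replicates were separate cultures, so p-values measure the spread between these samples, which may be technical. The members and the 5 gene lists were chosen with earlier results of these data known. From each list the 3 genes with the largest called response in NONT were named, and up to 3 called in each other comparison, with the 3 genes nearest to each member. A few genes that this rule or the marker lists hold are not reported here. Alternatives were pseudocounts of 0.1 and 10, no filter or a mean of at least 50, no trend, 3 rescalings (same total, median of ratios, same mitochondrial sum), a replicate block and leaving out each library. Python 3.11.15 made the summaries.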

Additional observations from a re-analysis of the deposited data

Results flagged for a closer look

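The triptolide response of FOSL2 differed from that of NONT cells in each knockout by the test of the difference itself, with a log2 difference of 1.75 in NUP93-KO and 2.28 in EXOSC5-KO cells (limma adjusted p = 0.0377 and 0.00913). Treated FOSL2 was higher in all 4 knockout libraries than in both NONT libraries, a separation that 75.6% of all genes showed in NUP93-KO and 75.1% in EXOSC5-KO cells. Both calls were lost without the filter, without the trend and with the same mitochondrial sum, the NUP93-KO call also under the other rescalings, and each without some single libraries, untreated NONT replicate 2 among them (adjusted p = 0.139 and 0.169).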

How the results depend on the processing

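Rescaling moved the median response of all genes from −1.62 in NONT to −0.32 (same total), −0.02 (median of ratios) or −1.28 (mitochondrial sum), and the median difference from 0.74 to −0.02, 0.00347 and 0.09 in NUP93-KO cells. Under all rescalings the 8 AP-1 genes stayed lower after triptolide in each genotype, and all but FOSB in NONT (−2.09 with adjusted p = 0.107 under the same total, −1.86 with 0.145 by median of ratios) kept their side of the threshold. FOSB in NUP93-KO was called with a pseudocount of 10 (adjusted p = 0.0456). Of the differences in response, the count called in NUP93-KO was 1 and became 0 without the filter, without the trend and under the 3 rescalings, 2 with a mean of at least 50, and 0 to 3 with a library left out. In EXOSC5-KO it was 1 and became 0 without the filter (FOSL2 adjusted p = 0.0501), without the trend (0.0841) and with the mitochondrial sum (0.133), and 0 to 3 with a library left out. The cause was not tested.

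Values of AP-1 genes that changed sign were all uncalled. Under the same total they were ATF3 in untreated NUP93-KO (0.013), JUND in the NUP93-KO difference (−0.073, and −0.052 by median of ratios) and FOSL1 in the EXOSC5-KO difference (−0.000256, and −0.022 by median of ratios). With the mitochondrial sum they were JUND (−0.25), FOSB (−0.20) and FOSL2 (−0.21) in untreated EXOSC5-KO. With a library left out, signs changed in the untreated NUP93-KO comparison for FOSB (−0.72 to 1.19 over the libraries left out) and ATF3 (−0.32 to 0.12), in the untreated EXOSC5-KO comparison for JUN (−0.32 to 0.23), JUND (−0.079 to 0.34), FOS (−0.29 to 0.22), FOSB (−0.81 to 1.10) and FOSL2 (−0.050 to 0.38), and for FOSB in the NUP93-KO (−0.35 to 2.48) and EXOSC5-KO differences (−2.16 to 0.66).

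Same-numbered replicates did not deviate together across genes (r = −0.051 to 0.037). This correlation does not see a shift common to all genes of a library, so it cannot tell whether same-numbered replicates were handled together. The replicate block left the FOSL2 calls (adjusted p = 0.0441 for NUP93-KO, 0.0139 for EXOSC5-KO) and all counts of AP-1 genes as they were. It ended the calls of PLAUR (0.0512), of MAPK10 in treated NUP93-KO (0.0628) and of CXCL8 in treated EXOSC5-KO cells (0.0645). Of all 13811 genes, 105 were called less reduced in NUP93-KO and 44 in EXOSC5-KO, but 41 and 14 with the block. Without the filter 19002 genes were tested, and 4 and 5 were called. With a mean of at least 50, 11667 were tested, and 1051 and 77 were called. With the same total, the drug lowered 5269 genes of NONT cells and raised 2105, against 5429 and 1922 (NUP93-KO) or 5074 and 2027 (EXOSC5-KO). Of 719 repeats of the 55 called results of named list genes, 664 kept direction and call, 49 lost the call and 6 changed sign (SPP1 and PLAUR after the drug, under the same total or median of ratios). By median of ratios SPP1 in NONT (0.81, adjusted p = 0.0198) and PLAUR in EXOSC5-KO cells (0.44, adjusted p = 0.00341) were called higher. Treated JUN, JUNB, FOS and FOSB rest on few reads, which limits their differences.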
